A study of Mus musculus with 8 samples.

Results

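The insulin signalling genes described here are Insr, Irs1, Pik3r1, Akt1 and Akt2, taken as every probe set whose gene symbol in the platform annotation is 1 of these 5 names. Each gene had 1 probe set, so they make up 5 of the 12488 probe sets in the table and 5 of the 8251 genes with a probe set of their own. Of them 3 (Pik3r1, Akt1 and Akt2) were bright enough to be tested, among 6128 genes in all. They were followed on 8 Affymetrix arrays of mouse epididymal white adipose tissue, the fat pad beside the epididymis. The mice were either wild type or labelled Ppara KO, and the latter lack the nuclear receptor PPARα, a fatty acid sensor that drives genes of fat oxidation. In each genotype there was 1 array for a control, 1 for 8 hours after 30 nmol of CL 316243, 1 for 3 days and 1 for 6 days of CL 316243 at 3 nmol per hour. This compound selectively activates the β3-adrenergic receptor of fat cells. The labels call the wild type control an animal without drug and say nothing of a vehicle. The labels give neither strain nor age, nor the design of the Ppara allele, nor how many animals stand behind an array.

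Insulin binds its receptor, Insr, a tyrosine kinase that phosphorylates adaptor proteins such as Irs1. Phosphorylated adaptors hold the regulatory subunit of PI3-kinase, encoded by Pik3r1, and bring the catalytic subunit to the membrane, where its lipid product activates the kinases Akt1 and Akt2. In fat cells Akt2 is the main isoform for glucose uptake, and insulin restrains lipolysis while β3-adrenergic agonists raise cyclic AMP and drive it.

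The sequences of the tested genes' promoters are shown because the drug raises cyclic AMP. Any part of these sequences in the readings was not tested. Each is the 250 bases before the outermost transcript start in RefSeq on GRCm38.p6, read 5′ to 3′ on the gene's strand, and capitals mark the short core motif of the cyclic AMP response element, searched as TGACG and its reverse complement CGTCA. The Akt2 window lies at chr7:27591302-27591551 on the plus strand, the Pik3r1 window at chr13:101768218-101768467 on the minus strand, and the Akt1 window at chr12:112674885-112675134 on the minus strand.
Akt2: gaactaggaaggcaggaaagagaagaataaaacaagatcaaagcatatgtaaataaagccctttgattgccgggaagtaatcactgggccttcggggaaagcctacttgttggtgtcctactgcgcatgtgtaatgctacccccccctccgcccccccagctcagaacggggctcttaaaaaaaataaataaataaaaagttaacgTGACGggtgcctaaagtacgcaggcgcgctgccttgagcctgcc
Pik3r1: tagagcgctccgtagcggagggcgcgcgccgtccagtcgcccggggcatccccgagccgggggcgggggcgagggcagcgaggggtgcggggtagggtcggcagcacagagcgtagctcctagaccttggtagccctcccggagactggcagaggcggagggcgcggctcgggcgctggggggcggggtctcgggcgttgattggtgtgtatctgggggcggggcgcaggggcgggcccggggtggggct
Akt1: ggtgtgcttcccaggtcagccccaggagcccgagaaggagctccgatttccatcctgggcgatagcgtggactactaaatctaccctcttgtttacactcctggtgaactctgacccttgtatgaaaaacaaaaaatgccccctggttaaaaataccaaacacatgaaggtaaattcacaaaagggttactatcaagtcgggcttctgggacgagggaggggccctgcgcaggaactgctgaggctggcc
The Akt2 window held 1 match, whose first base lay 44 bases before the start, and the Pik3r1 and Akt1 windows held 0. Irs1 also had 1 match, 118 bases before its start, and Insr was not in the promoter table, so 4 of 5 genes had a window to search. Of all 32851 windows of this length, 17.8% held at least 1 match. The sequences differed in composition, with 76.4% G or C and 30 CpG dinucleotides for Pik3r1, 48.8% and 10 for Akt2, and 52% and 7 for Akt1, against medians of 52.4% and 6 over all windows. Genes with several starts have several windows in the table (4 for Akt2, 2 each for Pik3r1 and Akt1), and only the outermost was searched. A match is a run of letters, not a measured binding site.

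The arrays as a whole limit what follows. Deposited intensities had a median of 320 and a 75th percentile between 1250 and 1250.25 on each array. Values under 171, which is the 40th percentile of the pooled intensities, were treated as dim and set to that floor before log2 was taken. Ppara was brighter on the 4 wild type arrays (395 to 1843) than on the 4 knockout arrays (214 to 336). Some tissue markers differed by array: the summed intensity of genes of epididymis and testis reached 120649 in the knockout control, against 1038 to 16552 elsewhere, and that of pancreas genes was 66377 in the wild type control, 19876 in the knockout at 8 hours and at most 3456 elsewhere. Their part in the results was not tested. The signs of RNA quality also moved with the controls: the 5′ to 3′ ratio of the actin control probes was 0.636 and 0.647 in the wild type and knockout controls, against 0.704 to 0.866 on the treated arrays, and that of Gapdh was 0.788 in the knockout control, against 1.04 to 1.18 elsewhere. Their part was not tested either.

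At the top of the pathway, neither the receptor nor its main adaptor gave a measurable level. Insr, the insulin receptor, had a median intensity of -48.5 over the 8 arrays, with a lowest value of -80 and a highest of -21, and was above the floor on 0 of 8 arrays. Negative intensities mean that the probe set was no brighter than its background. Irs1, the adaptor that couples the receptor to PI3-kinase, read 151, 84, 134 and 227 in wild type, in the order control, 8 hours, 3 days and 6 days that is kept below. In the knockout it read 104, 86, 119 and 38. It passed the floor on 1 of 8 arrays, that of the wild type at 6 days, so no change in either gene could be detected with these probe sets. The tissue was labelled as fat, and all 7 adipocyte markers on the array were above the floor on each of the 8 arrays. A probe set at or under its background gives no level for its gene and does not show that the gene is silent.

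**Figure D1:**
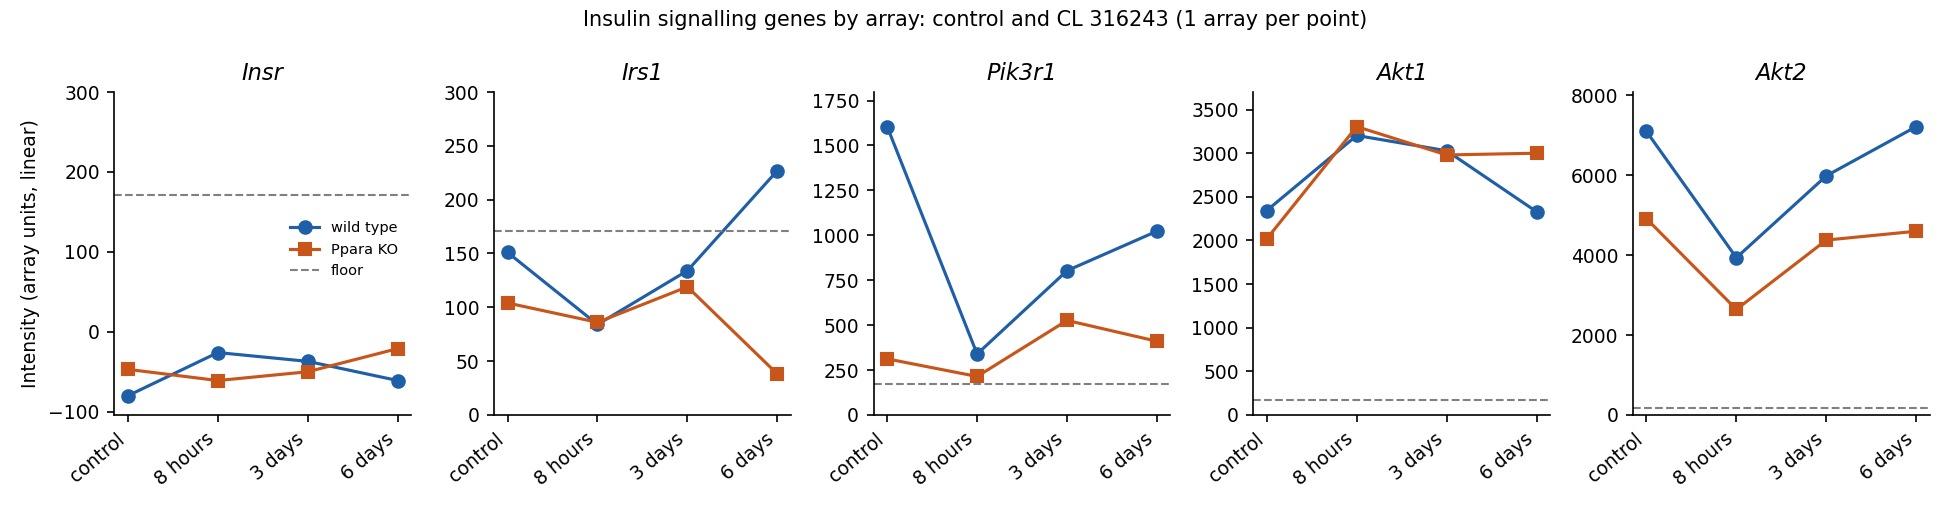
Deposited intensity of the 5 insulin signalling genes (1 panel a gene, own vertical scale) at control, 8 hours, 3 days and 6 days; each point is 1 array, colours part wild type from Ppara KO, and the broken line is the floor of 171. Akt2 is lowest at 8 hours in both genotypes, Akt1 highest at 8 hours in both, Pik3r1 is brightest in the wild type control, and all Insr points lie below the floor.

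Akt2 was the member that changed past the threshold. Its intensity read 7095, 3935, 5984 and 7216 in wild type from control to 6 days, and 4912, 2640, 4376 and 4597 in the knockout. Both 8-hour arrays lay below each of the other 6, a pattern that 12.2% of all tested probe sets shared. The fall at 8 hours was 1.8-fold in wild type and 1.86-fold in the knockout. Over both genotypes the log2 difference from control was -0.87 ± 0.17 (SE, 95% interval -1.29 to -0.45), with a limma adjusted p of 0.0289. At 8 hours 13.6% of all tested probe sets passed in either direction and 7.36% passed as lower; of the 3 tested members, Akt2 was the 1 that did.

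At 3 days and at 6 days Akt2 was near its control. The log2 differences from control were -0.21 ± 0.17 (95% interval -0.63 to 0.21, limma adjusted p = 0.543) and -0.04 ± 0.17 (-0.46 to 0.38, adjusted p = 0.94). Set against 8 hours, it was higher by 0.84 ± 0.17 at 6 days (0.42 to 1.26, limma adjusted p = 0.0399; 8.48% of all tested probe sets passed there, 4% as higher). The difference of 0.67 ± 0.17 between 3 days and 8 hours missed the threshold (0.25 to 1.09, limma adjusted p = 0.0902; 4.07% of all passed). The comparisons with control and with 8 hours share the same 8-hour arrays. These arrays followed a dose of 30 nmol, and the 3-day and 6-day arrays 3 nmol per hour. Here and below, time and regimen therefore cannot be told apart. In order, Akt2 averaged 12.53 on the log2 scale in controls, 12.49 at 6 days, 12.32 at 3 days and 11.65 at 8 hours, and the gaps of 0.04 and 0.17 between the upper neighbours did not exceed the SE of a difference, 0.17.

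The size of the Akt2 fall at 8 hours hardly moved when a control or 8-hour array was left out, but its call did. Those fits gave log2 differences between -0.89 and -0.86. Leaving out a 3-day or 6-day array cannot move this size in the fitted model, only its SE and its call. The limma adjusted p was 0.0681 with the wild type control left out and 0.121 with that of the knockout left out. It was 0.126 and 0.151 when the 8-hour array of wild type or of the knockout was dropped, and 0.0871 when a 3-day array of either genotype was. It stayed past the threshold with a 6-day array of either genotype dropped (0.0333), and was 0.0565 with the floor at the 25th percentile and 0.162 with no genotype term. The rise from 8 hours to 6 days missed the threshold without any 1 of the 8 arrays (adjusted p between 0.0607 and 0.19), at log2 differences of 0.77 to 0.9.

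**Figure D2:**
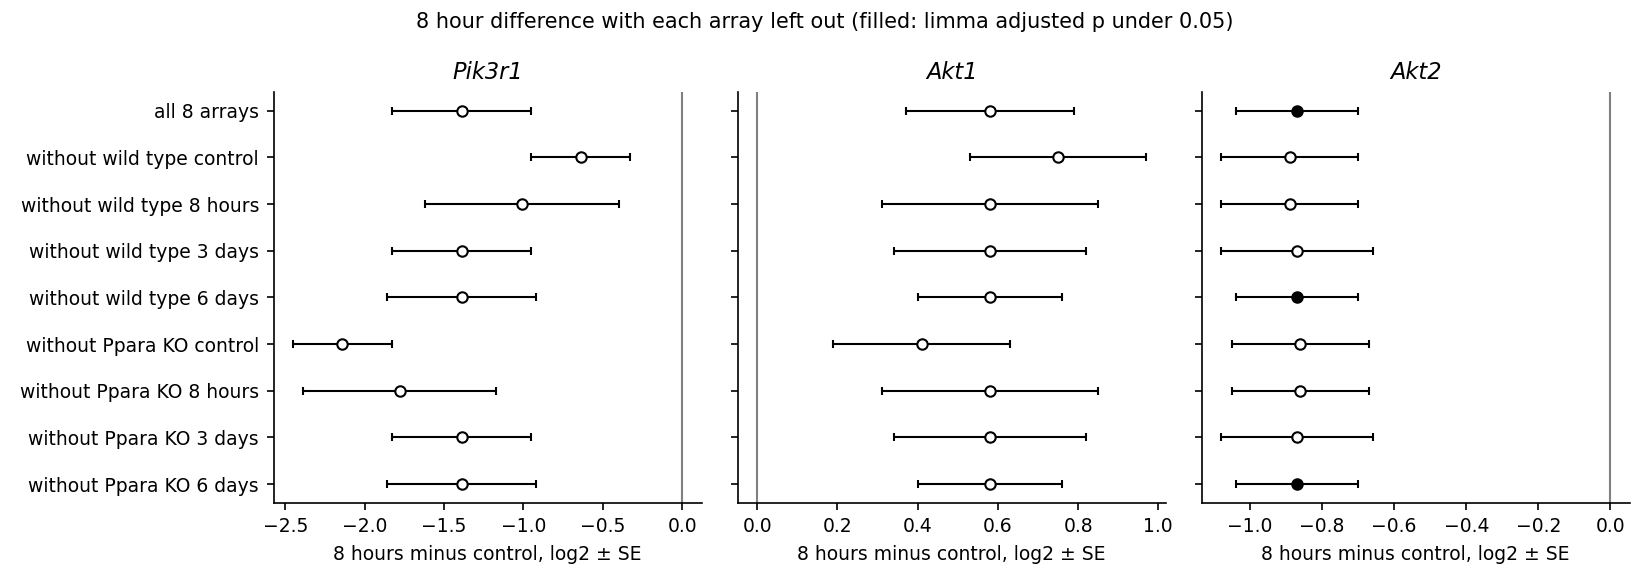
Log2 difference from control at 8 hours for the 3 tested genes (1 panel a gene) with all 8 arrays and with each array left out in turn; bars are SE, and filled points have a limma adjusted p under 0.05. Akt2 holds between -0.89 and -0.86, while Pik3r1 runs from -2.14 with the knockout control left out to -0.64 with the wild type control left out. Leaving out a 3-day or 6-day array cannot move these differences, only their SE and call.

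Markers of fat cells and of leukocytes differed between the same arrays. The 7 adipocyte markers on the array summed to between 152501 and 174319 in controls, 69372 to 72623 at 8 hours, 109682 to 147291 at 3 days and 110939 to 156623 at 6 days. Macrophage markers (8 of 8 on the array) summed to 16359 to 17830 in controls, 47929 to 51826 at 8 hours and 68724 to 90251 at 3 days. At 6 days they summed to 26390 in wild type and 121661 in the knockout. Neutrophil markers summed to 553 to 769 in controls, with 1 to 3 above the floor, and 24812 to 32974 at 8 hours, with 5 or 6. They summed to 1350 to 2885 at 3 days and 822 to 2158 at 6 days, with 2 to 5 above the floor at each. Most of the 8-hour sums came from S100a8 (12282 in wild type, 17892 in the knockout) and S100a9 (8857 and 10978). Ltf read lower at 8 hours (182 to 158 in wild type, 121 to 61 in the knockout), and Ngp lay under the floor on each array. Within the adipocyte list the genes differed: Fabp4, a fatty acid binding protein, read 11088 in the wild type control and 10169 at 8 hours, and 11008 and 12395 in the knockout, whereas Adipoq, the hormone adiponectin, went from 57089 to 20668 and from 51664 to 24788. The part of these markers in the Akt2 result was not tested. In whole tissue, fewer cells of a type and less RNA per cell cannot be told apart.

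Akt1, the isoform found in most cell types, ran the other way at 8 hours without passing the test. It read 2343, 3203, 3028 and 2329 in wild type and 2019, 3305, 2980 and 3000 in the knockout. Both 8-hour arrays were above each of the other 6, as in 14.8% of all tested probe sets. The log2 difference at 8 hours was 0.58 ± 0.21 (95% interval 0.08 to 1.08, limma adjusted p = 0.115), or 1.37-fold in wild type and 1.64-fold in the knockout. It was 0.47 ± 0.21 at 3 days (-0.04 to 0.97, adjusted p = 0.265) and 0.28 ± 0.21 at 6 days (-0.22 to 0.78, adjusted p = 0.525). At those times 1.05% and 0.871% of all tested probe sets passed, and 0 of the 3 tested members did (0 of 3 also at an unadjusted p under 0.05). At 6 days Akt1 read 2329 in wild type, close to its control, and 3000 in the knockout, a difference that was not tested by itself. From the highest mean to the lowest, the order was 8 hours, 3 days, 6 days, then control, at log2 levels of 11.67, 11.55, 11.37 and 11.09, with the gaps of 0.12 and 0.18 between the first 3 under the SE of 0.21.

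With Akt2 lower and Akt1 brighter, their log2 difference was smaller at 8 hours. Akt2 minus Akt1 was 1.6, 0.3, 0.98 and 1.63 along the wild type course. In the knockout it was 1.28, -0.32, 0.55 and 0.62. The change from control to 8 hours was thus -1.3 in wild type and -1.61 in the knockout. At 6 days it was 0.03 in wild type and -0.67 in the knockout. Since probe sets differ in how brightly they read a transcript, these values show unequal change of the 2 genes and not which is more abundant, and the contrast was chosen after the values were seen and was not tested.

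Pik3r1, the PI3-kinase regulatory subunit, had the widest range of the 3 tested members and the least settled differences. It read 1605, 339, 803 and 1023 in wild type. In the knockout it read 312, 214, 526 and 410. The wild type control stood above the other 7 arrays, and the groups overlapped across genotypes, since the wild type 8-hour array was brighter than the knockout control. Within each genotype the 8-hour array was the lowest, 4.73-fold below control in wild type and 1.46-fold below in the knockout. Of the 3 tested members on 6 treated arrays, this wild type value was the 1 reading at least 2-fold from its own control, and the wild type value at 3 days, 803 against 1605, lay just under 2-fold. On the wild type arrays 15.8% of all tested probe sets were at least 2-fold from control in either direction at 8 hours, 11.1% at 3 days and 7.57% at 6 days, and on the knockout arrays 22.2%, 15.5% and 17.4%.

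The log2 difference of Pik3r1 at 8 hours was -1.39 ± 0.44 (95% interval -2.47 to -0.32, limma adjusted p = 0.0891). It rested on the control arrays, being -0.64 with the wild type control left out and -2.14 with that of the knockout left out. At 3 days it was -0.12 ± 0.44 (-1.2 to 0.96, limma adjusted p = 0.915) and at 6 days -0.13 ± 0.44 (-1.21 to 0.95, adjusted p = 0.91). Both turned positive when the wild type control was left out, to 0.63 and 0.62, and the 3-day value also when the wild type 3-day array was, to 0.3. From 8 hours it differed by 1.27 ± 0.44 at both infusion times (limma adjusted p = 0.163 at 3 days and 0.134 at 6 days). Its mean log2 levels were 9.47 in controls, 9.34 at 3 days, 9.34 at 6 days and 8.07 at 8 hours, so that only 8 hours was separated from its neighbour by more than the SE of 0.44.

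**Figure D3:**
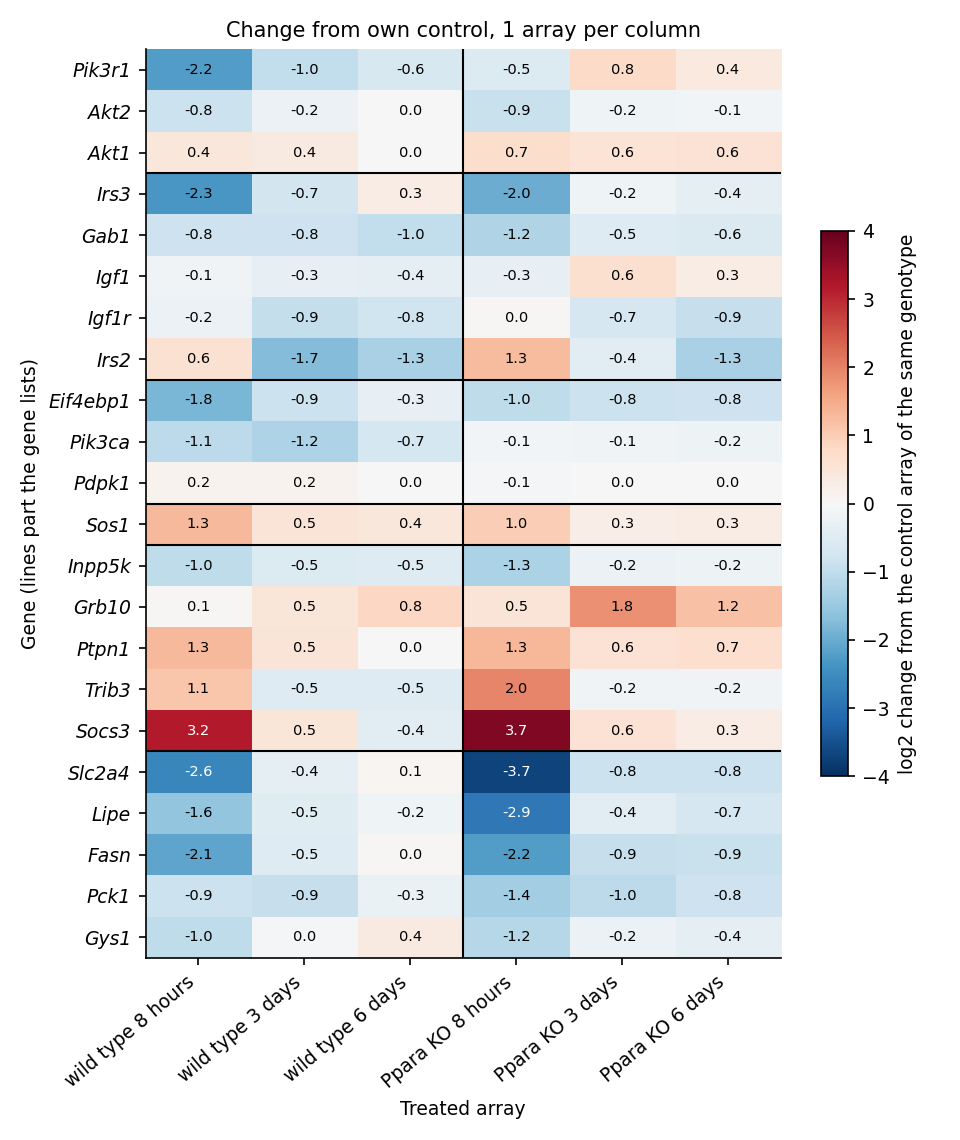
Log2 difference of each treated array from the control array of its own genotype, for the 3 tested members and the named genes of the insulin pathway (rows) on the 6 treated arrays (columns); blue is lower and red higher, and intensities under 171 count as 171. The 8-hour columns carry the strongest colours in both genotypes, with Socs3 highest and Slc2a4 among the lowest, and Pik3r1 goes from -2.24 at 8 hours in wild type to positive values at 3 and 6 days in the knockout.

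Between the genotypes, Akt2 and Pik3r1 were lower in the knockout at each of the 4 times, as were 14% of all tested probe sets. For Akt2 the wild type array was 1.44-fold brighter in controls, 1.49-fold at 8 hours, 1.37-fold at 3 days and 1.57-fold at 6 days. For Pik3r1 it was 5.14-fold, 1.58-fold, 1.53-fold and 2.5-fold brighter. Over the 4 times the log2 difference of knockout from wild type was -0.55 ± 0.12 for Akt2 (95% interval -0.85 to -0.26, limma adjusted p = 0.281) and -1.24 ± 0.31 for Pik3r1 (-2 to -0.48, adjusted p = 0.281). For Akt1 it was 0.04 ± 0.15 (-0.31 to 0.4, limma adjusted p = 0.892), with log2 differences of -0.21, 0.05, -0.02 and 0.37 along the time course. Of all tested probe sets 0 passed between genotypes by limma (0%), while 1105 had an unadjusted p under 0.05, Akt2 (0.00388) and Pik3r1 (0.00731) among them. Without the wild type control the Pik3r1 value was -0.86. The summed adipocyte markers at 6 days were 156623 in wild type and 110939 in the knockout, and the macrophage markers 26390 and 121661, and their part in the genotype values was not tested.

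Whether the response to drug differed between genotypes was tested as an interaction, and 0 of the 3 tested members passed. The interaction, knockout minus wild type for the mean treated difference from control, was -0.03 ± 0.24 for Akt2 (95% interval -0.69 to 0.63, limma adjusted p = 0.971) and 0.34 ± 0.28 for Akt1 (adjusted p = 0.696). For Pik3r1 it was 1.5 ± 0.39 (0.44 to 2.56, limma adjusted p = 0.424; unadjusted p = 0.0167). By limma 0 probe sets (0%) passed, with 754 at an unadjusted p under 0.05. This term sets 3 treated arrays against 1 control array in each genotype, so the Pik3r1 value contains the 5.14-fold difference between the 2 control arrays (1.93% of all tested probe sets were at least 2-fold lower in the knockout control than in the wild type control).

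Other genes of the pathway came from lists by role, 97 genes in all, of which 68 had a probe set of their own and 62 genes with 77 probe sets could be tested. At 8 hours 5 probe sets passed as higher and 9 as lower, 18.2% of the 77 against 13.6% of all tested. Their median log2 difference was -0.1, against -0.01 over all. At 3 days and at 6 days 0 of the 77 passed by limma, with 16 and 10 at an unadjusted p under 0.05 (20.8% and 13%, against 21.1% and 17.8% of all tested). At 8 hours 56 of the 77 had the same sign in both genotypes (72.7%, against 67.9% of all tested). The count of 14 at 8 hours fell to 5 when the wild type control was left out and to 1 when that of the knockout was. It was 0 with an 8-hour array of either genotype left out, 6 with a 3-day array left out and 15 with a 6-day array left out.

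Among ligands, receptors and adaptors, 2 of 14 probe sets passed at 8 hours, both lower, and the list's median was -0.04. Irs3, an adaptor of rodent fat, read 868, 150, 527 and 1059 in wild type and 684, 27, 607 and 529 in the knockout. Both 8-hour values lay under the floor, so the log2 difference of -2.17 ± 0.31 (limma adjusted p = 0.0137) is a lower bound on the size of the fall. Gab1, a docking protein for growth factor receptors, fell by 1.02 ± 0.24 (adjusted p = 0.0425), while its other probe set gave -0.33 (adjusted p = 0.46). Irs2, the other main adaptor, read 632, 959, 192 and 255 in wild type and 420, 1011, 312 and 169 in the knockout. Its difference from control of 0.93 ± 0.35 at 8 hours missed the threshold (limma adjusted p = 0.132). Against 8 hours Irs2 was lower at 3 days and at 6 days, by log2 differences of -2.01 ± 0.35 and -2.24 ± 0.35 (limma adjusted p = 0.0399 and 0.0237), the latter a bound because the knockout value lay under the floor. Irs3 went the other way, at least 1.73 ± 0.31 higher at 3 days than at 8 hours and at least 2.13 ± 0.31 higher at 6 days (limma adjusted p = 0.0436 and 0.0202). At 3 days both of these differences from 8 hours held only when a 6-day array was dropped, and missed the threshold when a control, 8-hour or 3-day array of either genotype was (adjusted p up to 0.294 for Irs2 and 0.355 for Irs3). At 6 days the Irs2 call was lost without any 1 of the 8 arrays (adjusted p 0.0514 to 0.197), and that of Irs3 held only with the knockout 6-day array dropped (0.0237 to 0.172). The growth factor Igf1 (-0.24 ± 0.32, limma adjusted p = 0.674) and its receptor Igf1r (-0.1 ± 0.2, adjusted p = 0.781) did not pass at 8 hours. Nor did the other probe set of Igf1, which was lower by a larger log2 difference (-0.59 ± 0.21, limma adjusted p = 0.112).

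In the PI3-kinase and Akt arm 1 of 20 probe sets passed at 8 hours, and the list's median was -0.21. It was Eif4ebp1, a repressor of translation that insulin inactivates through mTOR, which read 5664 in control and 1581 at 8 hours in wild type, against 4317 and 2143 in the knockout (-1.43 ± 0.32, limma adjusted p = 0.0396). Pdpk1, the kinase that phosphorylates Akt, was at 0.04 ± 0.17 (adjusted p = 0.924). Pik3ca, a catalytic subunit of PI3-kinase, was at -0.58 ± 0.3 (adjusted p = 0.246). Its probe set read 1164 in the wild type control, against 492 to 712 on the other 7 arrays, a wild type control above all other arrays as for Pik3r1. Its other tested probe set did not have this pattern, reading 483 in the wild type control and at most 602, in the knockout control. In the MAP kinase arm 1 of 6 passed, and the list's median was 0.57. Sos1, the exchange factor that activates Ras, rose from 241 to 596 in wild type, with 235 and 462 in the knockout (1.14 ± 0.18, limma adjusted p = 0.0164). Foxo1, Gsk3b, Pik3cb and Pde3b had no probe set of their own here.

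Among inhibitors and phosphatases 4 of 18 probe sets rose and 1 fell at 8 hours, with a median of 0.22. Socs3, which blocks the insulin receptor and marks it and its adaptors for degradation, read 280, 2501, 391 and 209 in wild type and 256, 3328, 380 and 316 in the knockout. It rose by 3.43 ± 0.24 (limma adjusted p = 0.00219), and its other probe set, under the floor in both controls, by at least 3.9 ± 0.23 (adjusted p = 0.00172). Ptpn1, a phosphatase that removes phosphate from the insulin receptor, went from 1315 to 3213 and from 1399 to 3513 (1.31 ± 0.23, limma adjusted p = 0.0228). Trib3, a pseudokinase that binds Akt, went from 244 to 525 and from 190 to 733 (1.53 ± 0.24, adjusted p = 0.016). Inpp5k, a phosphatase of the PI3-kinase product, was the member that fell, from 1917 to 952 and from 1662 to 683 (-1.15 ± 0.22, limma adjusted p = 0.0274). Grb10, an adaptor that inhibits the receptor, was at 0.29 ± 0.33 (adjusted p = 0.605). Socs3 and Trib3 were lower again in the infusion, by -2.9 ± 0.24 and -1.86 ± 0.24 at 3 days against 8 hours (limma adjusted p = 0.00677 and 0.0242), the latter a bound because both 3-day values lay under the floor. These 3-day calls were lost with an 8-hour or 3-day array of either genotype left out (adjusted p up to 0.201 for Socs3 and 0.274 for Trib3), and that of Trib3 also with either control left out.

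The metabolic outputs of insulin action had the lowest median of the 5 lists at 8 hours, -0.65, against -0.01 over all tested. Of 19 probe sets 5 passed as lower and 0 as higher, against 7.36% of all tested as lower, and 17 of 19 lay below 0. The list holds genes by role, whether insulin raises or restrains them, so its median does not measure insulin action. Slc2a4, the glucose transporter that Akt2 brings to the cell surface, read 5187, 851, 4065 and 5497 in wild type. In the knockout it read 3588, 277, 1997 and 1997. Its 8-hour difference was -3.15 ± 0.3 (limma adjusted p = 0.00461), and it was higher than at 8 hours by 2.55 ± 0.3 at 3 days and 2.77 ± 0.3 at 6 days (adjusted p = 0.0187 and 0.0127). Both calls against 8 hours were lost with an 8-hour or 3-day array of either genotype left out, and the 6-day call also with the wild type 6-day array left out (adjusted p up to 0.233 at 3 days and 0.158 at 6 days). Lipe, hormone-sensitive lipase, and Fasn, fatty acid synthase, were at -2.22 ± 0.35 and -2.18 ± 0.27 (limma adjusted p = 0.0163 and 0.00925). Pck1, the enzyme of glyceroneogenesis, and Gys1, glycogen synthase, were at -1.13 ± 0.22 and -1.09 ± 0.23 (adjusted p = 0.0283 and 0.0339). Slc2a4, like Akt2, was lowest at 8 hours in both genotypes and dimmer in the knockout at each time. Lipe is also 1 of the adipocyte markers, whose sums were lower at the same time. The calls of Slc2a4, Socs3 and Fasn at 8 hours held in 5 of the 8 fits that left out 1 array and were lost with an 8-hour array of either genotype or the knockout control left out. Irs3 and Lipe held in 4 (lost also without the wild type control), Trib3 in 3 (lost with either 3-day array out, but kept with the wild type control out), and Ptpn1, Gab1, Eif4ebp1, Sos1, Inpp5k, Pck1 and Gys1 in 2, those that dropped a 6-day array.

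**Figure D4:**
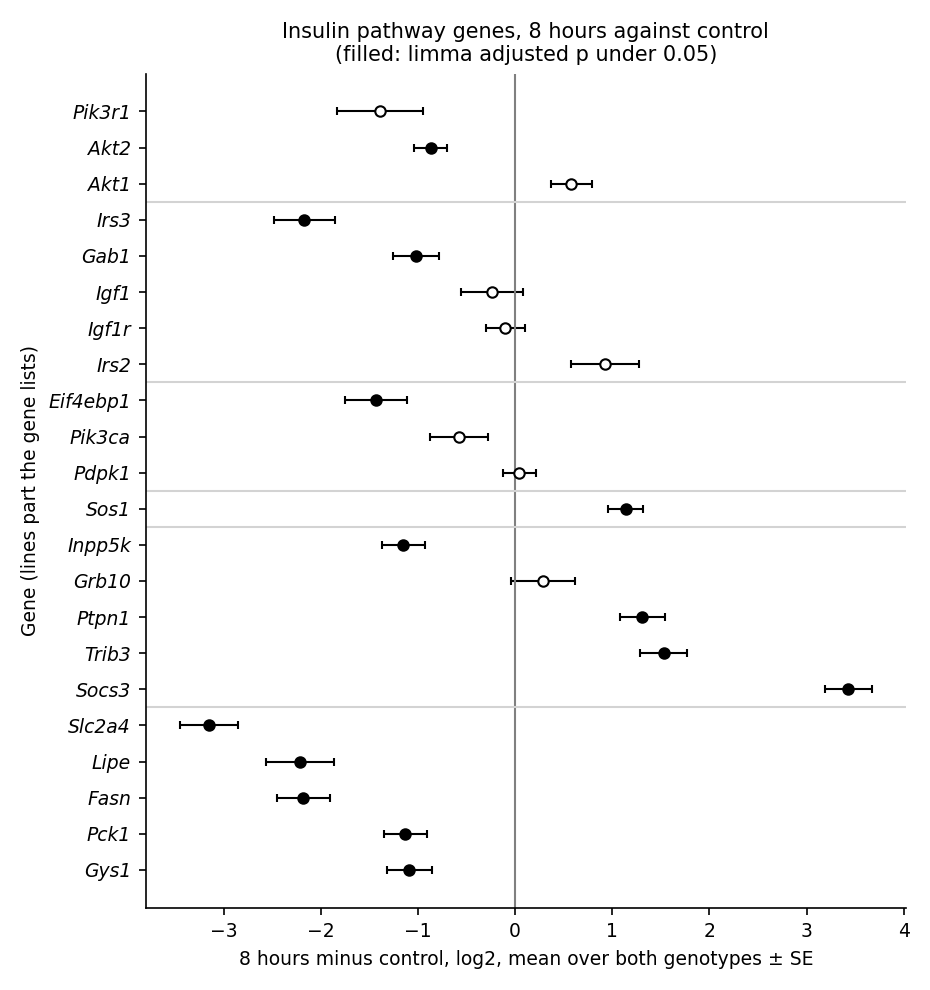
Log2 difference of 8 hours from control, mean over both genotypes with its SE, for the 3 tested members and the named pathway genes; grey lines part the members, the ligands, receptors and adaptors, the PI3-kinase and Akt arm, the MAP kinase arm, the inhibitors and phosphatases, and the metabolic outputs, and filled points have a limma adjusted p under 0.05. The outputs shown are the 5 that passed, all as lower, from -3.15 for Slc2a4 to -1.09 for Gys1. Of all 19 output probe sets, 2 were above 0 and are not shown. Socs3 reaches 3.43 and Akt2 sits at -0.87.

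The genes whose course over the 8 arrays was most like that of each member were found by the root mean square distance between log2 values centred on each gene's mean, among 5752 candidates. Nearest to Akt2 (own SD 0.48) were Bckdk and Bckdhb, the kinase and a subunit of the enzyme that breaks down branched-chain amino acids, and Arl2bp, each at a distance of 0.11. Bckdhb read 10524, 6304, 11138 and 11899 in wild type and 8121, 5049, 7708 and 8109 in the knockout, from control to 6 days. Nearest to Akt1 (own SD 0.26) were Bmp1 at 0.07 and Nmt1 and Tial1 at 0.08. Nearest to Pik3r1 (own SD 0.98) were Ube2h at 0.32, Nfix at 0.35 and Igkv6-23, an immunoglobulin segment, at 0.39. These distances describe shape over 8 arrays only. All 3 genes near Pik3r1 were brighter in the wild type control than in the knockout control, as Ube2h shows with 1668 and 542.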

How the data were processed

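Per the labels, each array held total RNA of 1 of 8 groups. The authors deposited intensities on a linear scale, as whole numbers, 11.9% below 0, already matched in median and quartiles; how is not given in the sources used here. The arrays' number limits the precision. Values under 171 (the 40th percentile) were set to 171 and log2 was taken; 66 array control probe sets were left out. The 7346 probe sets with 1 gene symbol and at least 2 of 8 arrays above the floor were fitted with limma 3.58.1 in R 4.3.3 as genotype plus time over 8 arrays (3 residual degrees of freedom), with Benjamini-Hochberg adjustment over all 7346 and a threshold of 0.05. A separate fit held the interaction. Each group held 1 array, so the spread behind an SE or p is the departure of the arrays from the fitted model. It mixes array noise with any difference between genotypes in the time course. The noise may be technical, since the labels leave unsaid if an array is 1 animal or a pool. In simulated data for the 8-hour comparison, 200 of 7346 probe sets were changed and no genotype difference was made. There 9.09% of log2 changes of 1, 77.6% of 2 and 95.5% of 3 were recovered. In the deposited data 1002 probe sets passed at 8 hours. The adjusted threshold depends on the share that changes, so the simulated rates need not hold for the deposited data. Pathway genes were named if they belonged to a chosen set of 14 central genes or were among the 6 largest called changes of their list at any treatment time, and are shown by their brightest probe set. Members and lists were chosen with earlier results of these data known. No column was left unused (0 columns).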

Additional observations from a re-analysis of the deposited data

How the results depend on the processing

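Quantile normalization, 75th percentile scaling and a floor at the 50th percentile changed no member's call. The normalization and the scaling could hardly move a value, since the deposited arrays were already matched in median and quartiles. The filter, the choice of the brightest probe set, the prior and the genotype term cannot move the size of a difference between 2 times. Nor can leaving out an array of another time. For Akt2, well above each floor, the floor cannot move it either. An unmoved size or direction under these settings therefore says nothing of how robust a value is. With 1 array a group, values rest on few arrays, and dim probe sets such as Insr and Irs1 gave none. A fit without an array assumes that the lone array left at that time varies like the rest. Of the single-gene values under settings other than leaving out 1 array, 466 kept their direction and side of the threshold, 95 lost it, 5 gained it and 0 reversed. The genotype term sets each treated array against the control of its own genotype, and the setting with no genotype term is the unpaired form of that fit. At 8 hours, 1002 probe sets, 14 pathway probe sets and 1 member passed. With the floor at the 25th percentile these were 583 for all and 0 for members; with no filter on dim probe sets 185 for all and 3 for the pathway; with no genotype term 607, 9 and 0; and without both the knockout control and the knockout 8-hour array, chosen after seeing the data, 0, 0 and 0. Leaving out 1 array gave 0 to 1205 for all, 0 to 15 for the pathway and 0 to 1 for members. At 3 days the 77 calls became 0 with the 25th percentile floor, 0 with no filter, 134 when all 8 arrays had to exceed the floor, 154 with an intensity trend and robust prior, 0 without the 2 knockout arrays and 0 to 470 without 1 array; the pathway count of 0 became 0 to 1. At 6 days the 64 calls became 14, 0, 129, 0 and 0 to 290 under the same settings (not moved past 1.5-fold by requiring all 8 arrays) and 34 with no genotype term. The 1 member called at 6 days against 8 hours became 0 with the 25th percentile floor, no filter, both controls left out, no genotype term, or the 2 knockout arrays left out, and 0 to 0 without any 1 array. Akt2 at 8 hours ran from -0.89 to -0.85 over 18 alternatives, with limma adjusted p from 0.0125 to 0.23, past the threshold in 9. Values that changed sign without 1 array were those at 8 hours of Igf1 (-0.61 to 0.13), Igf1r (-0.22 to 0.01), Pdpk1 (-0.04 to 0.12) and Grb10 (-0.07 to 0.64); Pik3r1 at 3 days (-0.87 to 0.63) and 6 days (-0.88 to 0.62); Akt2 at 6 days (-0.1 to 0.03); Akt1 between genotypes (-0.06 to 0.13); and the Akt2 interaction (-0.08 to 0.02). The cause was not tested. The interaction could not be fitted without a control array, with both controls out or with the 2 knockout arrays out.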

Other observations

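Probe sets of 1 gene did not always read alike. Of the other pathway genes, 15 had several tested probe sets, and 0 of them had probe sets of opposite sign at 8 hours, but sizes differed. Inpp5d, a lipid phosphatase of blood cells chosen here after its values were seen, read 130, 600, 403 and 201 in wild type from control to 6 days and 365, 734, 717 and 961 in the knockout on 1 probe set, with an 8-hour log2 difference of 1.41 ± 0.45 (limma adjusted p = 0.0899), and 0.15 ± 0.27 on the other (adjusted p = 0.766). Pik3cd, the PI3-kinase catalytic subunit of white blood cells, was also chosen after its values were seen. On 1 probe set it read 625 at 3 days and 702 at 6 days in the knockout but 150 and -104 in wild type. Its other tested probe set read 196 and 191 in the knockout and 80 and 88 in wild type at those times, and was above the floor on 2 of 8 arrays. The macrophage marker sums at 6 days were 121661 in the knockout and 26390 in wild type, and their part in these values was not tested.

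During the infusion some genes of the pathway stood apart from control in both genotypes without passing, and were named after their values were seen. Igf1r read 1032, 539 and 592 at control, 3 days and 6 days in wild type, and 901, 571 and 472 in the knockout (log2 difference -0.8 ± 0.2 at 3 days and -0.87 ± 0.2 at 6 days, limma adjusted p = 0.108 and 0.12). Vamp2, a vesicle protein of glucose transporter delivery, read 2206, 865 and 1445 in wild type and 1911, 1030 and 1001 in the knockout (-1.12 ± 0.24 at 3 days, limma adjusted p = 0.0909). Grb10 read 270, 380 and 480 in wild type and 69 (under the floor), 602 and 388 in the knockout (1.15 ± 0.33 at 3 days, limma adjusted p = 0.134).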
